A study of Mus musculus with 2 samples.

Results

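The ZBTB genes encode transcription factors with a BTB domain at one end and zinc fingers at the other. They were taken as the protein-coding genes of chromosomes 1 to 19 and X in RefSeq whose symbol is Zbtb followed by a number, without Zbtb20, and 39 of 21627 protein-coding genes met that rule. Their IRF4 peaks were described in chromatin immunoprecipitation and sequencing data (ChIP-seq) from CH12.LX, an immortalised B-cell lymphoma line from a female mouse of strain B10.H-2aH-4bp/Wts. There is 1 group of 2 biological replicates with an antibody to IRF4 and no treatment, and the labels say nothing of separate cultures. The labels name another experiment that could serve as control; it was not analysed here. RNA was not measured, so a peak at a gene says nothing here of its transcription. The line comes from 1 tumour and stands for 1 kind of B cell only. With 1 group there is no comparison of conditions and no test: values at ZBTB genes stand beside the same values over all protein-coding genes or all peaks.

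The BTB domain lets these proteins pair and recruits corepressor complexes that carry histone deacetylases, and the zinc fingers read specific DNA words. Many members act as repressors that set the identity of blood cells, among them the regulators that decide between T cell lineages. IRF4, an interferon regulatory factor, directs germinal centre exit and plasma cell formation, and binds DNA mostly next to partner factors. With PU.1 or Spi-B it binds the ETS-IRF composite element (EICE), with BATF and JUN proteins the AP-1-IRF composite elements (AICE), and at high levels pairs of IRF sites as in the interferon-stimulated response element (ISRE).

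The sequences under the strongest ZBTB peaks are shown first, with or without the elements that the later counts refer to. They are the 11 of 13 peaks with an optimal signal of 100 or more that had a match on mm9. The peaks left out, with signals of 110.0 and 108.6, are both at Zbtb7c, and no sequence was read for them. The windows come from the mm9 list of peaks and the mm9 genome, forward strand, and each peak was matched to its mm10 peak by its distance from the same gene start. Capitals mark matches, on either strand, to EICE (GGAA, any 2 bases, then GAAA), ISRE (GAAA, any 2 bases, then GAAA), the AICE with adjoining sites (GAAA then TGANTCA), the AICE with a gap (TTTC, any 4 bases, then TGANTCA), the AP-1 site (TGANTCA, N being any base), the octamer (ATGCAAAT), the NF-kB site (GGG, any 2 bases, then TTTCC) and the ETS words ACTTCCGG and GGAAGTGA. Windows are 101 bases around the summit, cut to 30 bases around the capitals where the summit lies in an untranslated exon. Their places are chr12:77476705-77476805 (Zbtb1), chr7:31379327-31379427 (Zbtb32), chr9:96640973-96641073 (the stronger Zbtb38 peak), chr9:96640351-96640451 (the other Zbtb38 peak), chr19:8881481-8881581 (Zbtb3), chr10:80592195-80592295 (Zbtb7a), chr17:34056573-34056602 (Zbtb22), chr2:181116770-181116799 (Zbtb46), chr3:89182898-89182927 (Zbtb7b), chr9:48625567-48625667 (Zbtb16) and chr3:9246204-9246304 (Zbtb10).
Zbtb1: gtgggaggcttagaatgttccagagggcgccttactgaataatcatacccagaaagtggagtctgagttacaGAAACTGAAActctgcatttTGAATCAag
Zbtb32: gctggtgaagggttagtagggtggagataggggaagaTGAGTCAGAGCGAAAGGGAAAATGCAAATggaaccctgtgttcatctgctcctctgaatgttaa
Zbtb38, stronger: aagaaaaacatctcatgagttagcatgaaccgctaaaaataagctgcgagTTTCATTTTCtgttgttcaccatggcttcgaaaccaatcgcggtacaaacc
Zbtb38, other: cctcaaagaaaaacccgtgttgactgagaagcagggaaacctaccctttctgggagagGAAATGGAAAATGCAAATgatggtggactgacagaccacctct
Zbtb3: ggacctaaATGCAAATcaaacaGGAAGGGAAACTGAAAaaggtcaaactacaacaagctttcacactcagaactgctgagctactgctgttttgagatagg
Zbtb7a: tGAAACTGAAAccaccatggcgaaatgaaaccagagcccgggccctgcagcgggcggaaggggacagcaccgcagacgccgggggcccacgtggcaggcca
Zbtb22: ttagaagGAAAATGAAAGTGAAAggggaag
Zbtb46: cttGGGGGTTTCCggtgtgcTGAGTCAacc
Zbtb7b: ccaggaaaaaGGAACAGAAAccaggaagga
Zbtb16: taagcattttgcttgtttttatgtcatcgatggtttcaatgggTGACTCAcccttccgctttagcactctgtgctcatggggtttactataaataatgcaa
Zbtb10: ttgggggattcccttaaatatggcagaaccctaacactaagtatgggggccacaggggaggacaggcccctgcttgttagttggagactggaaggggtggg

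The peak at Zbtb32 joins 4 of these elements in 1 run of capitals, with an AP-1 site inside an AICE with a gap, then an ISRE that is directly followed by an octamer. At Zbtb38 the weaker of the pair of peaks shows the same order of ISRE and octamer with no base between, and at Zbtb3 an EICE and an ISRE overlap and an octamer lies close by. Zbtb1 has an ISRE and an AP-1 site with A in its middle, Zbtb46 an NF-kB site and an AP-1 site, and Zbtb7b an EICE. The Zbtb16 window holds an AP-1 site and no IRF element. The Zbtb22 peak lies in the first exon of Tapbp, which encodes tapasin, a loader of MHC class I, and repeats the ISRE in overlapping form. The whole 101-base window there also holds an NF-kB site outside the stretch shown. The Zbtb10 window holds none of the 9 patterns. The summits at Zbtb1, Zbtb16, Zbtb32 and Zbtb38 are intronic in those genes, those at Zbtb3, Zbtb7a and Zbtb10 are intergenic, that of Zbtb7b is in its own untranslated exon and that of Zbtb46 in an untranslated exon of Lime1, which encodes a membrane adaptor of lymphocytes.

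A summit of the optimal list, which the depositors made from both replicates with the irreproducible discovery rate (IDR), was counted for a gene where it lay in the gene body or within 10 kb of either end. By this count 34 of 39 ZBTB genes had a summit, 87.2% (Wilson 95% interval 73.3 to 94.4), against 62.3% of all protein-coding genes. A summit within 1 kb of a start was found for 20 of 39 ZBTB genes, 51.3% (36.2 to 66.1), against 35.0% of the 21314 genes with a known start. Starts are those of protein-coding genes throughout, and those of noncoding RNA genes were not counted. A summit in the strongest quartile of the list, with a signal of at least 66.2, was found for 15 of 39 ZBTB genes, 38.5% (24.9 to 54.1), against 26.7% of all genes. The last interval includes the share of all genes, and the first 2 lie above it. The intervals cover counting error over genes, which are not independent replicates. The signal is the authors' value for each peak, on a scale that is not stated. It ranks and describes peaks within 1 list, and the values of both replicates are given at matched summits, where their scales may differ.

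ZBTB genes also have promoters rich in CpG, where summits are frequent in general. Each gene was given its listed promoter with the most CpG, from 250 bases before to 50 after a start. The median was 29.5 CpG over 34 ZBTB genes, against 15 over 17273 genes. Among genes at or above that count, 14 of 17 ZBTB genes had a summit, 82.4% (59.0 to 93.8), against 82.5% of all 2984 such genes. Among genes below it, 16 of 17 ZBTB genes had a summit, 94.1% (73.0 to 99.0), against 58.0% of all 14289 such genes, with Zbtb43 as the exception. The ZBTB share was thus close to that of all genes in the CpG-rich class and above it in the other, within which CpG counts were not matched further. Both comparisons were chosen after the data were seen.

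The number of summits varied widely. Of the ZBTB genes with any, 11 had 1 summit, 15 had 2 to 4 and 8 had 5 or more, which is 20.5% (10.8 to 35.5) of the 39, against 12.5% of all genes. The median was 2 summits per ZBTB gene and 1 per gene over all genes, and the means were 3.15 and 2.03. Gene length differed little, with a median body of 18295 bp for ZBTB genes and 17330 bp for all genes. Per 100 kb of gene and flanks the medians were 4.48 and 2.34 summits. In all, 117 distinct summits lay at ZBTB genes, and 59 of them were in gene bodies. The start nearest to a summit belonged to a gene outside the family for 40 of the 117. Those summits cannot be assigned to a ZBTB gene from position alone.

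The strongest summit of a gene had a median signal of 61.1 over the 34 ZBTB genes with a summit, against 58.3 over all genes with one. The values ran from 24.95 at Zbtb12 to 302.6 at Zbtb1. At the high end, 12 of 39 ZBTB genes reached a signal of 100 or more, 30.8% (18.6 to 46.4), against 15.3% of all genes. Among the 12, Zbtb1 and Zbtb25 were counted for the same peak. Zbtb46 and Zbtb22 reached it only through summits nearest to Lime1 and Tapbp.

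**Figure D1:**
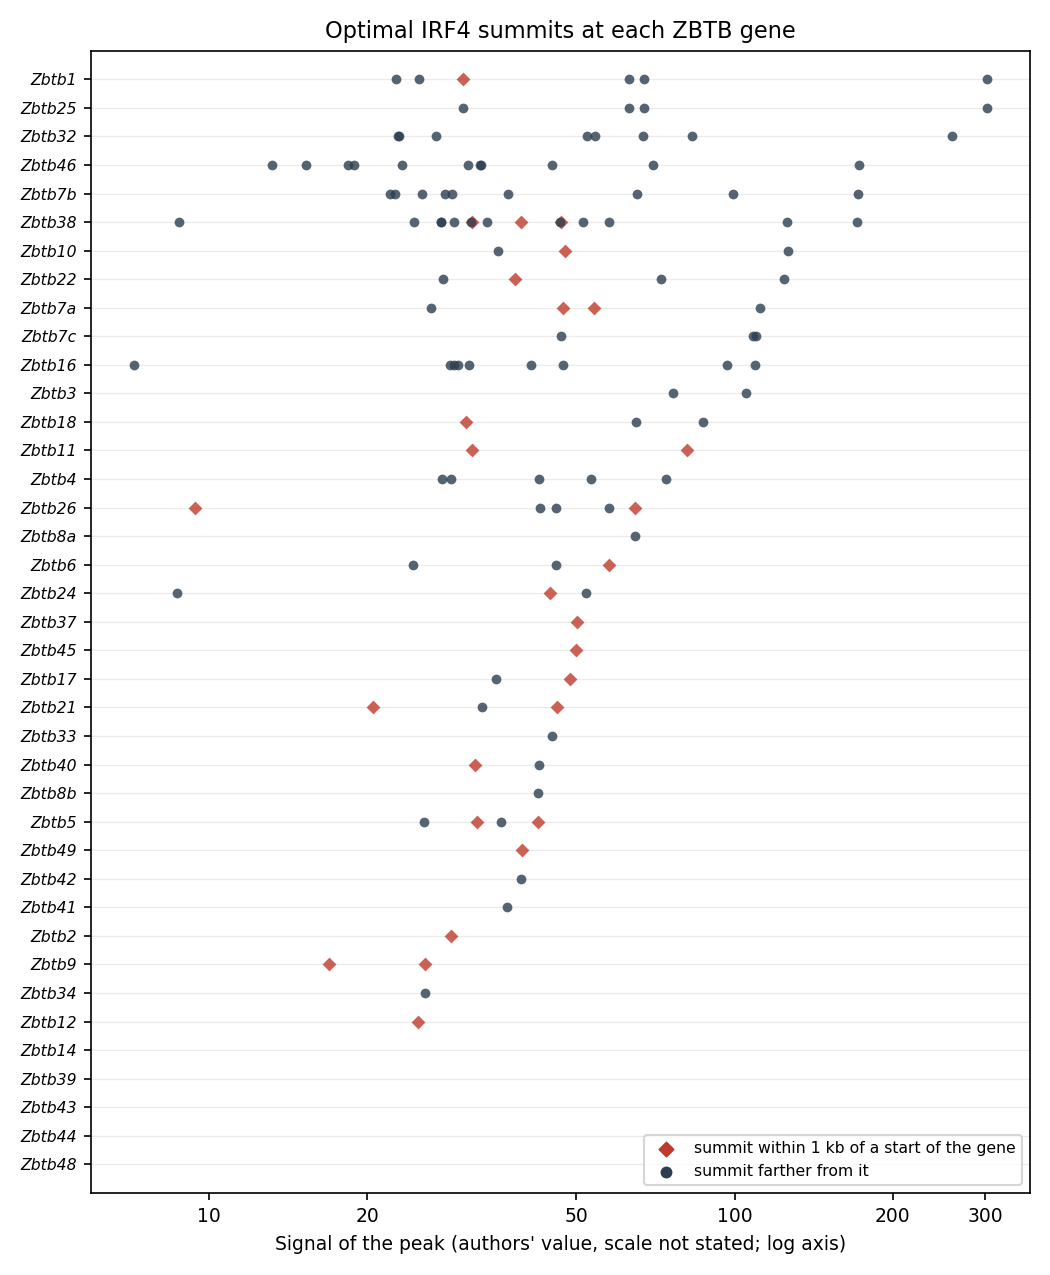
Signal of every optimal summit at each ZBTB gene (log axis), 1 line per gene in order of its strongest summit, with diamonds for summits within 1 kb of a start of that gene and dots for the others. Zbtb1 and Zbtb25 share the highest value, 302.6, Zbtb38 has 15 summits, and the 5 genes at the foot have none.

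**Figure D2:**
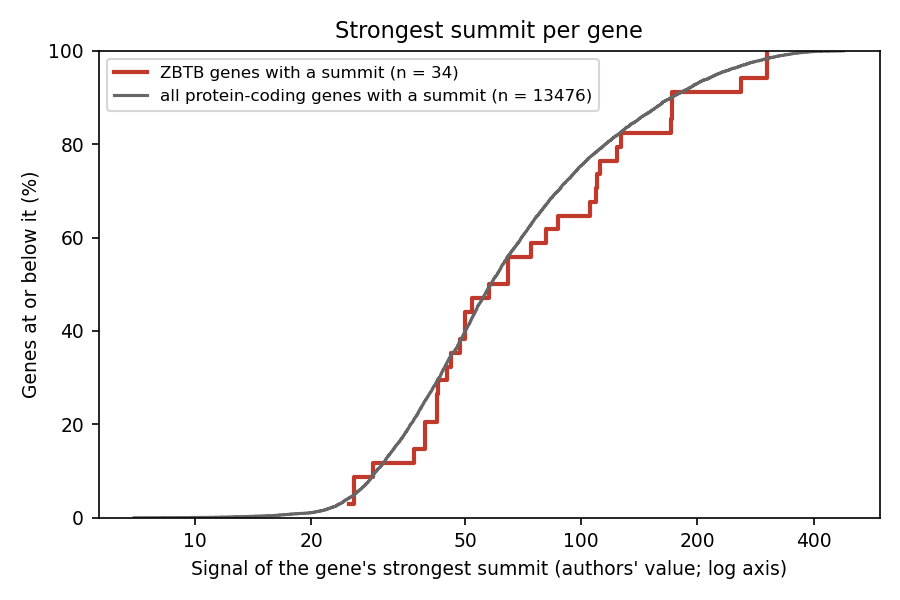
Percent of genes whose strongest summit has at most the signal on the x axis (log axis), for the 34 ZBTB genes and the 13476 protein-coding genes with a summit. The medians are 61.1 and 58.3, and the lines run close together at low signals.

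Zbtb1 and Zbtb25 lie head to head on chromosome 12 and share 4 summits. Zbtb1 is needed for lymphocyte development in mice. The shared top peak (chromosome 12, 76375663 to 76375878, mm10) lay 5248 bp into Zbtb1 and upstream of Zbtb25, with a signal of 302.6 and values of 145.9 in replicate 1 and 157.5 in replicate 2. It ranked 288 of 44047 optimal peaks on chromosomes 1 to 19 and X, above every other ZBTB summit. On either side of it, summits of 67.3 and 63.0 lay within Zbtb1, and a summit of 30.4 lay 709 bp after a Zbtb1 start. No summit lay within 1 kb of a Zbtb25 start, so all 4 of its summits were nearer to Zbtb1.

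Zbtb32, also called ROG or PLZP, restrains GATA3-driven cytokine genes in T cells and recall responses of memory B cells. Its strongest peak (chromosome 7, 30594253 to 30594467, mm10), the one with the joined elements shown above, had a signal of 259.98, with 126.7 in replicate 1 and 132.5 in replicate 2. It lay inside the gene record, 1416 bp upstream of the nearest listed start. The gene had 8 summits, which is 24.1 per 100 kb, and a second intronic peak reached 83.0. Of the 2 summits downstream, that of 67.0 lay 14 bp from the start of Kmt2b, a histone methyltransferase gene.

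Zbtb7b encodes ThPOK, the factor that commits thymocytes to the CD4 lineage. It had 9 summits and the highest density of the family, 24.98 per 100 kb. Among starts of protein-coding genes its own were the nearest to all 9, though starts of the noncoding RNA gene Gm15417 lie closer to some. The strongest (chromosome 3, 89378927 to 89379073, mm10) had a signal of 171.9, with 68.5 in replicate 1 and 102.3 in replicate 2, and lay 8655 bp after the nearest start, in the exon whose EICE is shown above. Another summit, 1644 bp after a start, reached 99.2, with 50.04 in replicate 1 and 49.3 in replicate 2. By rank in the list of each replicate the first stood at 2287 in replicate 1 and 1898 in replicate 2, and the second at 4138 in replicate 1 and 7975 in replicate 2. No optimal summit lay within 1 kb of a Zbtb7b start. The depositors' conservative IDR list held one with a signal of 30.6, 419 bp after a start, that was not in the optimal list.

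Zbtb7a, the gene of LRF, which favours B over T cell fate in progenitors and silences fetal globin in red cells, had 4 summits. The strongest, 5735 bp upstream, had a signal of 111.8, with 54.2 in replicate 1 and 61.1 in replicate 2. Summits of 54.1 and 47.1 lay 733 bp before and 1 bp from a start, so this gene had both a distal and a promoter site. Its relative Zbtb7c had 3 summits over a body of 328387 bp, a density of 0.861 per 100 kb. Its top pair had signals of 110.0 and 108.6. The first had 30.01 in replicate 1 and 75.9 in replicate 2, and the other had 34.9 and 71.3.

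Zbtb46, a mark of classical dendritic cells, had 11 summits over 122254 bp. Its strongest had a signal of 172.3, with 71.8 in replicate 1 and 100.96 in replicate 2, but it lay 851 bp from the start of Lime1 and 42302 bp from the nearest start of Zbtb46. Of the 11 summits 8 were nearest to another gene. Among the summits nearest to Zbtb46 itself the highest was 69.8, with 26.9 in replicate 1 and 41.9 in replicate 2.

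Zbtb16 encodes PLZF, which directs natural killer T cells and other innate-like lymphocytes. It had 9 summits, the strongest of them in the first part of its long gene. The top summit, 18713 bp after the start, had a signal of 109.3, with 40.1 in replicate 1 and 68.5 in replicate 2. A summit at 12181 bp had 96.7, with 30.5 in replicate 1 and 67.6 in replicate 2. Of the 9 summits 4 were in the stricter conservative IDR list.

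Of the remaining lymphocyte factors, Zbtb17 and Zbtb24 had weaker sites. Zbtb17, the gene of the MYC partner MIZ-1 that lymphoid progenitors need, had a summit 19 bp from its start with a signal of 48.6, and the replicate lists gave 15.0 in replicate 1 and 33.6 in replicate 2. Zbtb24, whose human counterpart is mutated in a form of the immunodeficiency syndrome ICF, had 44.5 at its start. Replicate 1 gave 8.85 there and replicate 2 gave 38.2. Its strongest summit, 52.2, was nearest to Mical1.

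As a list, the 9 genes taken as lymphocyte factors (Zbtb1, Zbtb7a, Zbtb7b, Zbtb16, Zbtb17, Zbtb24, Zbtb25, Zbtb32 and Zbtb46) all had a summit, against 62.3% of all genes. Of the 9, 7 had one in the strongest quartile, against 26.7% of all genes. The list includes Zbtb46, a mark of classical dendritic cells, whose strongest summit was nearest to Lime1. The strongest summits of the 9 ran from 48.6 to 302.6 with a median of 171.9, and the median number of summits was 6. Of the 30 ZBTB genes outside the list, 25 had a summit and 8 had one in the strongest quartile. Their median strongest signal was 49.9 and their median number of summits was 1. A summit within 1 kb of a start was found for 4 of the 9 listed genes and 16 of 30 other ZBTB genes. Over all genes with a known start the share was 35.0%. The list was chosen with results of these data known and counts the shared Zbtb1 and Zbtb25 peak under both genes, so no test was made.

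**Figure D3:**
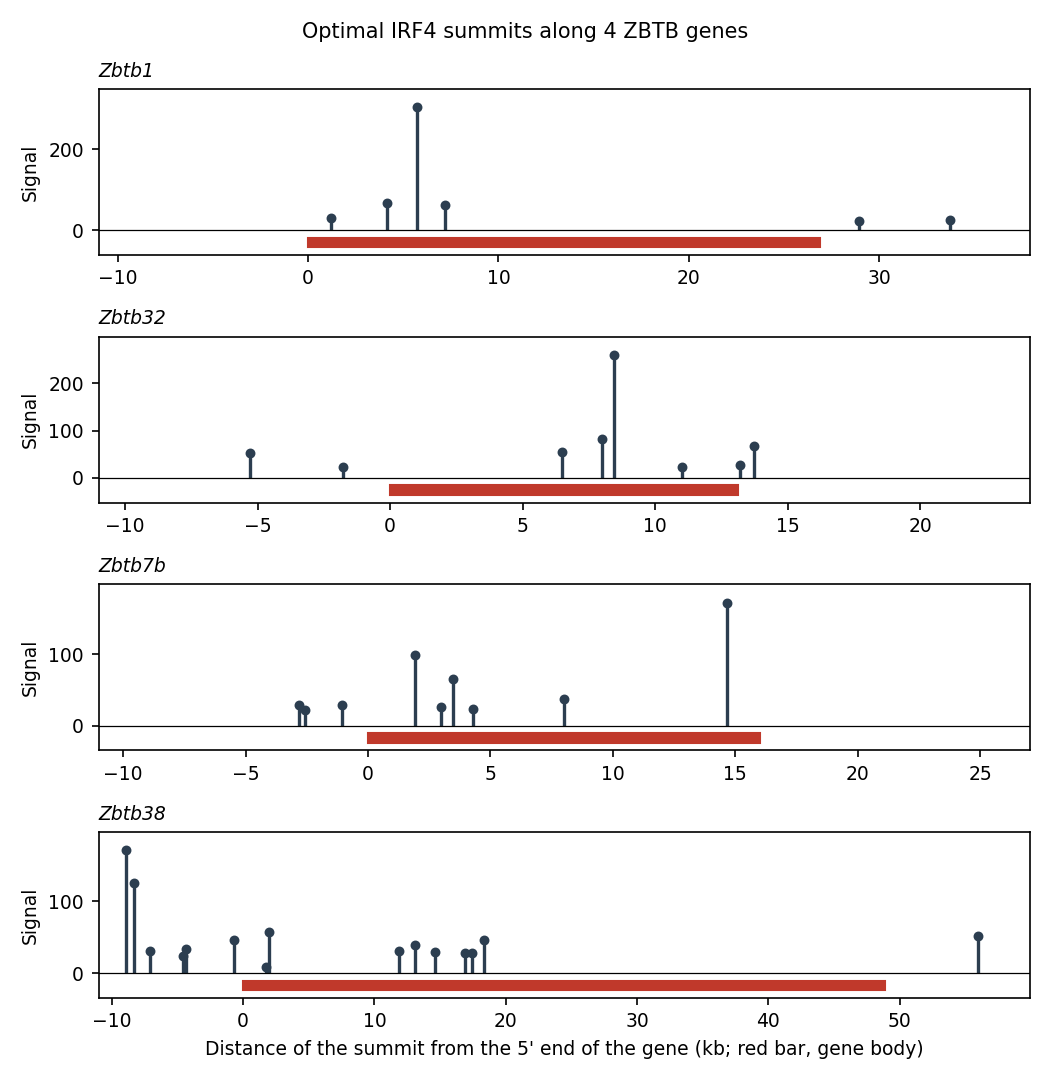
Optimal IRF4 summits along Zbtb1, Zbtb32, Zbtb7b and Zbtb38, with height for the signal, distance in kb from the 5′ end of the gene record in the direction of transcription on the x axis, and the gene body as a bar. The top summits, 302.6, 259.98, 171.9 and 170.9, lie away from the 5′ end in each gene.

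Zbtb33, Zbtb4 and Zbtb38 encode the family's readers of methylated CpG. Zbtb38 had 15 summits, the most in the family, all nearest to its own starts. A pair of strong peaks 8928 and 8313 bp upstream had signals of 170.9 and 125.8 (chromosome 9, 96740433 to 96740772 and 96739818 to 96740157, mm10). The first had 69.2 in replicate 1 and 99.0 in replicate 2, and the other had 54.9 and 70.6. In the mm9 annotation both lie in an intron of a longer Zbtb38 transcript. The other 13 summits had signals from 8.76 to 57.7, with 3 of them within 1 kb of a start. Zbtb33, the gene of Kaiso, had 1 summit, 4073 bp upstream, with a signal of 45.0. At Zbtb4 4 of 5 summits were nearest to another gene. The strongest, 73.9, lay 5 bp from the start of Polr2a, the gene of the largest RNA polymerase II subunit, with 23.4 in replicate 1 and 47.9 in replicate 2.

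The ZBTB genes of chromosome 17 lie in gene-dense stretches. Zbtb22 has Daxx on one side and Tapbp on the other within its window. Its strongest summit, 124.0, lay 162 bp from the Tapbp start, with 44.3 in replicate 1 and 81.3 in replicate 2, and a further summit of 72.5 lay in Tapbp. The summit at the start of Zbtb22 itself was weaker, 38.2. Zbtb12, whose gene is near the complement genes of the MHC, had 1 summit of 24.95, and Zbtb9 had 2, of 25.7 and 16.9. None of the summits of Zbtb12 or Zbtb9 had a match within 100 bp in both replicates, and none was in the conservative list. Zbtb14, on the same chromosome, had no optimal summit.

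Zbtb10, Zbtb40 and Zbtb48 have human counterparts that act at telomeres. Zbtb10 had a strong distal summit 4318 bp upstream, of signal 126.5, with 47.4 in replicate 1 and 80.8 in replicate 2, and a summit of 47.5 at 745 bp. Zbtb40 had 42.5 at 67208 bp from its start and 32.0 at its start, where replicate 1 gave 7.13 and replicate 2 gave 29.9. Zbtb48 had no optimal summit. The strong Zbtb10 peak is the one whose window shows none of the motifs.

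Among repressors of neural and muscle genes, Zbtb18, the gene of RP58, had 3 summits. Its strongest, 8856 bp downstream of the start, had a signal of 87.2, with 22.2 in replicate 1 and 62.9 in replicate 2. Among ZBTB summits in the strongest quartile it was farthest apart in rank, at 15396 in replicate 1 and 5228 in replicate 2. Zbtb45 had 1 summit 6 bp from its start with a signal of 49.9, and the replicate lists gave 7.75 in replicate 1 and 41.2 in replicate 2. The single summit of Zbtb42, 39.3, was nearest to Akt1, a kinase gene.

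Summits near gene starts in the windows of ZBTB genes were of middle strength. Of the 117 distinct summits, 45 were no more than 1 kb from a start of any protein-coding gene, 38.5%, against 20.2% of all optimal summits. The 45 include summits at starts of neighbouring genes outside the family, such as Polr2a, Kmt2b and Akt1. The 2 shares are not like for like. ZBTB summits were taken only in gene bodies or within 10 kb of them, while the optimal list was taken whole. The median signal of the 45 was 39.4, against 37.3 for all promoter summits. The 72 summits farther away had a median of 36.9, against 42.7 for all such summits. Of them 18 were in the strongest quartile, 25% against 27.6% over all distal summits. The strongest summit was within 1 kb of an own start for 12 of the 34 ZBTB genes and farther for 22. Protein-coding genes as a whole were not split in this way, so whether 12 of 34 is usual remains unknown.

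The strongest of these promoter summits lay at starts of other genes, such as Lime1 (172.3) and Tapbp (124.0). Among summits within 1 kb of a ZBTB gene's own start the highest was at Zbtb11, a gene that neutrophil formation needs in zebrafish, with a signal of 81.2 at 48 bp before a start. It had 42.8 in replicate 1 and 39.4 in replicate 2, and so ranked higher in replicate 1 (5394) than in replicate 2 (11601). Then came Zbtb26 with 64.7, 57 bp before its start and 34 bp from that of Rabgap1, Zbtb6 with 57.7, Zbtb7a with 54.1 and Zbtb37 with 50.1. Zbtb6 and Zbtb26 are neighbours on chromosome 2 and share 2 summits, 1 at the Zbtb6 start and 1 at the start of Rc3h2. At Zbtb37 the value was 28.5 in replicate 1 and 23.4 in replicate 2.

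The promoters of Zbtb11 and Zbtb45 are shown because a summit lies in each and the ETS word in it. The sequences are the 250 bases before the start, from RefSeq on GRCm38, in the direction of transcription: chr16:55973554-55973803 on the forward strand for Zbtb11 and chr7:13009853-13010102 on the reverse strand for Zbtb45. Capitals mark EICE and the words ACTTCCGG and GGAAGTGA on either strand.
Zbtb11: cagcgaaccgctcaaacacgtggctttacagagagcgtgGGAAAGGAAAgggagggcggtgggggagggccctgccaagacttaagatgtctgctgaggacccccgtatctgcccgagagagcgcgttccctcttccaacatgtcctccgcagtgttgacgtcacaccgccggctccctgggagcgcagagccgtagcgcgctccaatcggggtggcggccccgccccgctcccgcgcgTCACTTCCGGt
Zbtb45: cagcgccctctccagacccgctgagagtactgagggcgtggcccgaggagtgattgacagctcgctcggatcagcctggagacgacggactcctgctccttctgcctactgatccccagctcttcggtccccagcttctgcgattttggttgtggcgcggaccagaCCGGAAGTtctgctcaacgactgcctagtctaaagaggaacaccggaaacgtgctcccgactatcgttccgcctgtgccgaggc

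RefSeq gave 47 promoters for 34 ZBTB genes, and 13 of these held an optimal summit. The 13 include 2 overlapping promoters of Zbtb17 that hold the same summit. Of the 13, 3 held ACTTCCGG, 3 held GGAAGTGA on either strand, 2 held EICE and 2 held the NF-kB site. None held ISRE, either AICE, an AP-1 site or an octamer. Over all 32619 promoters, with or without a summit, ACTTCCGG was in 3.91%, GGAAGTGA in 3.44% and EICE in 2.73%. The NF-kB site was in 1.64% of them, ISRE in 3.46% and the AP-1 site in 7.85%. At Zbtb11 the 2 ETS words overlap on opposite strands. With 13 promoters these counts describe the promoters and carry no test.

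On the mm9 list the motif counts were set beside those of all peaks. Of the 117 summits, 49 had an mm9 peak within 100 bp of the place given by the same gene start, among them 11 of the 13 with a signal of 100 or more. An IRF element (EICE, ISRE or either AICE) was within 50 bp of the summit in 12 of 49 ZBTB peaks, 24.5% (14.6 to 38.1), against 16.0% of all 27671 peaks. In windows 300 bp to the side it was in none of the 49, against 2.50% of all.

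In percentage points the ZBTB peaks stood farthest above all peaks in ISRE and the octamer. ISRE was at 8 of 49 peaks, 16.3% (8.51 to 29.0), against 5.79% of all peaks. The octamer, the site of the widely expressed factor OCT1 and of OCT2, which B cells express, was at 7 of 49, 14.3% (7.10 to 26.7), against 2.61% of all. These 7 were at Zbtb32, Zbtb38, Zbtb3, Zbtb18, Zbtb24, Zbtb33 and Zbtb4. EICE was at 8.16% (3.22 to 19.2) of ZBTB peaks against 8.68% of all, and the AP-1 site at 16.3% against 16.0%. The AICE with a gap and the ETS word ACTTCCGG were at 2 of 49 each, 4.08% (1.13 to 13.7), against 1.12% and 1.21% of all peaks. The AICE with adjoining sites was at none of the 49, with an upper limit of 7.27%, against 1.13% of all peaks. The 9 patterns were chosen with earlier results of these data known, and the shares are descriptions only.

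An ISRE and an octamer in the same window were rare in the list as a whole. Both were at 3 of 49 ZBTB peaks, 6.12%, at Zbtb3, Zbtb32 and Zbtb38, against 31 of all 27671 peaks, 0.112%. The form in which an ISRE runs straight into an octamer, shown above, was at 2 of all 27671 peaks, and these were the peaks at Zbtb32 and Zbtb38. Each is 1 peak of 1 gene, and the joined form was searched for after it had been seen in their sequences.

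**Figure D4:**
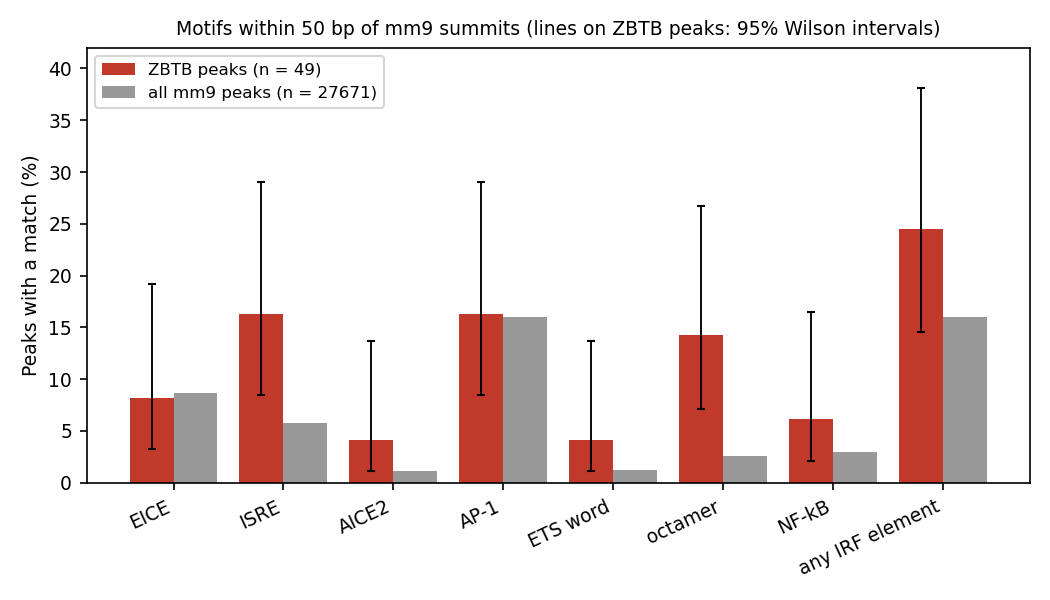
Percent of mm9 peaks with each motif within 50 bp of the summit, for the 49 ZBTB peaks (left bars, with Wilson 95% intervals) and all 27671 peaks (right bars). ISRE and the octamer are at 16.3% and 14.3% of ZBTB peaks, against 5.79% and 2.61% of all peaks, while EICE and AP-1 are level.

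IRF elements and AP-1 sites were more frequent at strong peaks, among ZBTB peaks and among all peaks. Of the 17 ZBTB peaks with an mm9 signal of 100 or more, 8 held an IRF element (47.1%), 5 an AP-1 site (29.4%) and 5 none of the 9 patterns (29.4%). Over all 8590 peaks of that signal these shares were 24.6%, 23.0% and 49.9%. Of the 32 weaker ZBTB peaks, 4 held an IRF element (12.5%), 3 an AP-1 site (9.38%) and 20 none (62.5%). Over all 19081 weaker peaks the shares were 12.2%, 12.9% and 68.6%. In the mm9 annotation 21 of the 49 summits were in introns and 18 were intergenic, and 6 were in untranslated exons, 2 in other exons and 2 in coding exons.

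The replicates gave most ZBTB sites alike in place. Of the 117 summits, 100 had a match within 100 bp in both replicates, 85.5% against 85.4% of all optimal summits. The optimal list was itself made from the agreement of these replicates, and their relaxed lists hold 215095 and 300000 peaks. A high share of matches is therefore partly built in. Replicate 2 was higher at 80 of them, with a median log2 ratio of replicate 2 to replicate 1 of 0.52, against 0.53 over all optimal summits. The Spearman correlation of the replicates over the 100 summits was 0.668, against 0.717 over all; peaks of 1 pair of libraries are not independent, so no p is given.

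A small set of promoter sites had far higher values in replicate 2. At 4 of the 100 matched ZBTB summits the value in replicate 2 was at least 4-fold that in replicate 1, 4.00% against 1.98% of all matched optimal summits. All 4 were among the 36 matched ZBTB summits within 1 kb of a start, 11.1% against 2.35% of all such summits. They were the start summits of Zbtb21, Zbtb24, Zbtb40 and Zbtb45. Zbtb21 had 6.83 in replicate 1 and 39.1 in replicate 2. In replicate 1 the 4 ranked from 61440 to 94893 in its relaxed list, far below the size of the optimal list. None of the 64 distal ZBTB summits differed so much, against 1.90% of all distal summits. None of the 100 was 4-fold higher in replicate 1, and for that direction no share over all summits was computed. None of these 4 summits was in the conservative list. Whether the replicates differ in depth cannot be told, since the sources used here give no read numbers.

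**Figure D5:**
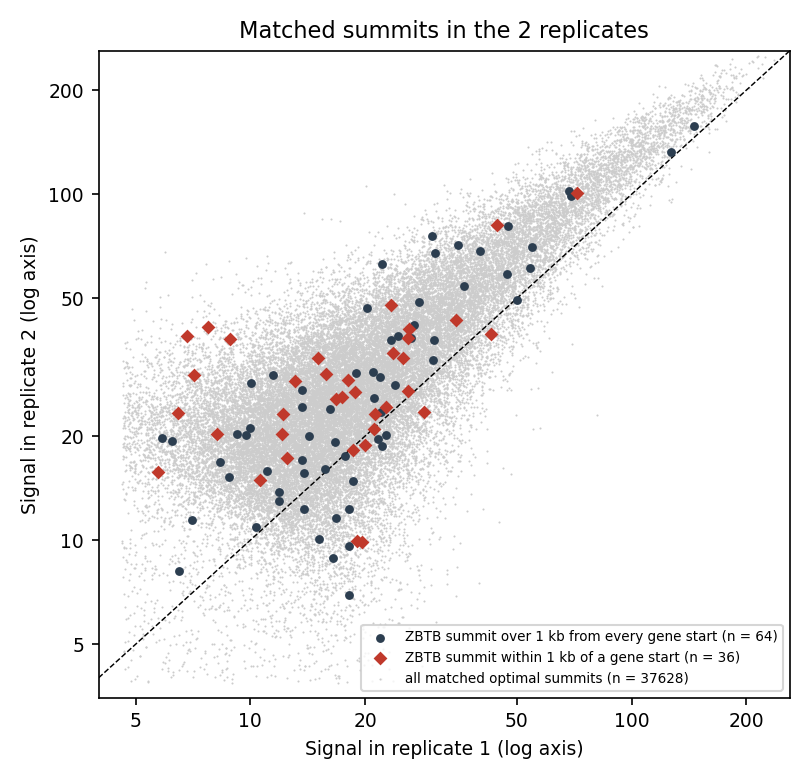
Signal in replicate 2 against replicate 1 (log axes, dashed line at equal values) for the 64 distal and 36 promoter ZBTB summits matched in both, over all matched optimal summits in grey. Promoter here means within 1 kb of a start of any protein-coding gene. Of the 100 ZBTB summits 80 lie above the line, and 4 promoter summits at the left lie farthest above it.

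The other ZBTB genes with a summit had strongest signals from 25.7 to 64.6, with Zbtb3 as the exception. Several genes described above lay in or below that range, such as Zbtb17 with 48.6 and Zbtb12 with 24.95. Zbtb3 had 105.3 at 4480 bp from its start, with 47.2 in replicate 1 and 59.0 in replicate 2, in the window with the EICE and the octamer. Then came Zbtb8a with 64.6, Zbtb21 with 45.9, Zbtb8b and Zbtb5 with 42.3 each, Zbtb49 with 39.4, Zbtb41 with 36.9, Zbtb2 with 28.8 and Zbtb34 with 25.7. The summits of Zbtb5, Zbtb49, Zbtb2 and Zbtb21 among these lay within 1 kb of their own starts, that of Zbtb41 was nearest to Aspm and that of Zbtb8b to Bsdc1.

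ZBTB genes with no optimal summit were Zbtb14, Zbtb39, Zbtb43, Zbtb44 and Zbtb48. In the relaxed list of both replicates pooled, which holds 300000 peaks, their strongest summits had signals of 16.1, 21.7, 22.4, 28.7 and 20.4. Zbtb43, Zbtb44 and Zbtb48 had summits in the conservative list close to their starts, of 22.4, 28.7 and 14.5. The conservative list held some peaks that the optimal list did not, and at ZBTB genes 17 of its 96 distinct summits were of this kind. In that list 31 of 39 ZBTB genes had a summit, 79.5% (64.5 to 89.2), against 57.4% of all genes, and 28 of them also had an optimal summit. For these 5 genes a strong site was not detectable in the 2 replicates, which does not show that there is none.

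Zbtb20, left out by the rule, had 59 summits, with a strongest signal of 469.7 and 7.58 summits per 100 kb. Many of the 39 genes were denser, with Zbtb7b, Zbtb32 and Zbtb38 highest at 24.98, 24.1 and 21.8 per 100 kb. All of them are shorter than Zbtb20, whose body is 758704 bp, so the flanks weigh more in their density. None of the 39 genes reached the strongest signal of Zbtb20.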

How the data were processed

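The analysis began from 6 peak lists. Per the deposited descriptions of the files, alignments on mm10 gave a relaxed list for either replicate and 1 for the pool, the optimal and conservative IDR lists came from these, and the mm9 list came from both replicates aligned to mm9. The deposited signal value of each peak is the authors'. Its scale, the peak caller, the aligner and the number of reads are not stated, so depth is unknown. Summits are the peak start plus its offset. Genes, starts and promoters are RefSeq's on GRCm38. Of the 39 ZBTB genes 34 matched a promoter entry, and 5 took the strand of the GENCODE gene of that name. Zbtb8os was left out, since it encodes a different protein.

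For each optimal summit the closest one in either relaxed list was taken, if within 100 bp. Motifs were sought on both strands within 50 bp of mm9 summits, as the genome used was mm9, and no coordinates were converted. The steps were checked on simulated data. Python 3.11.15, numpy 2.4.6, pandas 2.3.3, scipy 1.17.1, matplotlib 3.10.9, pysam 0.24.0 and samtools 1.23.1 were used. Genes and lists were chosen with earlier results of these data known. Named genes are the 10 with the strongest summit, the 5 with most summits, the 5 with most per 100 kb, the 5 with the strongest start summit, the 5 strong summits farthest apart in rank, all genes of the role lists and all with no summit. Zbtb2, Zbtb3, Zbtb5, Zbtb8a, Zbtb8b, Zbtb21, Zbtb34, Zbtb41 and Zbtb49 fall outside the rule and were named after their values were seen.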

Additional observations from a re-analysis of the deposited data

How the results depend on the processing

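Most counts held when 1 choice was changed. Without either flank, in gene bodies only, 21 ZBTB genes had a summit against 34 with 10 kb, the distinct summits were 59 against 117, the genes with a summit in the strongest quartile were 7 against 15, and the median strongest signal was 50.1 against 61.1. With 25 kb that median was 73.9. Lists of 1 replicate, cut to the size of the optimal list, gave 36 to 38 genes, 117 to 132 summits, 24 to 25 genes with a start summit against 20, and 15 genes in the strongest quartile, and their median strongest signals of 25.5 to 35.9 are on each replicate's own scale. Zbtb9 had no summit in replicate 1 alone. For gene bodies only, for 25 kb and for the lists of 1 replicate, no share over all genes was computed. These counts therefore do not show whether the ZBTB share stayed above that of all genes. The share of ZBTB peaks with an IRF element was 40.0% among the mm9 peaks above the median signal, where all peaks gave 21.0%, against 24.5% of ZBTB peaks in the whole list. In the conservative list Zbtb2, Zbtb9, Zbtb12, Zbtb21, Zbtb41 and Zbtb45 had no summit. Leaving out the 8 summits within 340 bp of a stronger one gave 109, and counting only the 5′ end of each gene as its start gave 18 genes; these 2 settings, and those by promoter CpG, were chosen after seeing the data. The causes were not tested. No paired analysis was possible because there is 1 group. Depth is unknown, so weak sites may be missed, and the summit nearest to a gene need not act on it.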

Other observations

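BTB zinc finger genes with other symbols, which the rule does not take, were looked at beside the ZBTB genes. All 8 (Bcl6, Bcl6b, Hic1, Hic2, Patz1, Mynn, Gzf1 and Zfp131) had an optimal summit, against 62.3% of all genes. Of the 8, 7 had one within 1 kb of a start, against 35.0% of all genes with a known start. Their median strongest signal was 47.7, against 61.1 for the 34 ZBTB genes. Hic1, a tumour suppressor gene, stood apart with 274.1, while Bcl6, the gene of the germinal centre repressor, had 49.2. All 10 genes of corepressors and partners that BTB proteins recruit had a summit, against 62.3% of all genes. Of the 10, 7 had one in the strongest quartile, against 26.7% of all genes. Their median strongest signal was 89.7, led by Hdac7 with 199.8 and Ncor1 with 189.2, with Bcor, the BCL6 corepressor gene, at 108.1 and Cul3, the gene of a ubiquitin ligase scaffold, lowest at 36.1. Their gene bodies are longer, with a median of 66073 bp, against 18295 bp for ZBTB genes. These lists were chosen with results of these data known and carry no test.

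Strong summits also lay beyond the 10 kb limit. Just inside it, 9 to 10 kb from a ZBTB gene body, there were 4 summits of 25.6 to 45.7, and from 10 to 11 kb there were 6 of 28.5 to 92.6. Up to 25 kb away, summits reached 248.9 at 20983 bp from Zbtb5, 219.5 at 22290 bp from Zbtb11 and 153.6 at 21339 bp from Zbtb38. Whether they belong to these genes was not tested.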
